A study of Mus musculus with 4 samples.

Results

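The genes described here are 42 genes of the G1/S transition and of DNA replication, taken by name from a fixed list and grouped by role into licensing of origins, E2F and cyclin E, the replication fork, and nucleotide supply. Of the 42, 41 were measured and are given below out of 18193 genes measured in all. Chaf1a had no probe set paired with it alone and was not analysed here. A gene was represented by its brightest probe set (a set of short array probes for 1 transcript) among those paired with that gene only, so the choice used brightness over all 4 arrays and not the difference between groups. The cells were T29, a mouse line from a thymic lymphoma, and their genotype is not given in the labels. The titles name 2 samples treated with DMSO, the solvent, and 2 treated with GSI, the gamma-secretase inhibitor MRK003, for which the labels write 5 mM and 36 h. The treatment text is the same in all 4 records, so what the DMSO samples received beyond solvent is known from their titles only. All samples come from this single line, and no label says whether replicates were separate cultures. So every p-value here reflects only how far these arrays lie apart, which may be technical variation.

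Before S phase, the origin recognition complex, CDC6 and CDT1 load the ring of MCM2 to MCM7 onto DNA, a step called licensing. Cyclin E with CDK2 and the kinase CDC7 then convert the loaded rings into active helicases with CDC45 and the GINS complex, and polymerases, primase, the PCNA clamp and its RFC loader build the fork. Most of these genes are classical targets of E2F factors, which the retinoblastoma protein and its relatives hold back in G1. In T-lineage lymphoma, Notch signalling, which depends on gamma-secretase, is known to drive growth and cell cycle entry, partly through Myc.

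Values are log2 expression made with RMA, and a difference is always GSI minus DMSO on that scale. Passing the test means an adjusted p below 0.05 in limma over all 18193 genes. Array medians over all genes lay between 5.77 and 5.82. The Notch targets checked, Hes1, Dtx1, Nrarp, Notch1, Notch3, Ptcra and Il2ra, all fell, 7 of 7, by a median of 2.26. Of 10 T-lineage markers 9 were measured, with mean levels from 9.55 to 12.49. Of these the T cell receptor chain genes Cd247 and Cd3g moved apart, Cd247 rising by 0.81 and Cd3g falling by 0.47, and the surface protein gene Thy1 rose by 0.53. Markers of other lineages had lower median levels on every array, 4.44 to 4.69 for 6 B cell genes, 4.20 to 4.64 for 7 myeloid genes and 5.07 to 5.20 for 6 stromal genes. Of these lists the adaptor gene Blnk (by 0.48) and the adhesion gene Pecam1 (by 0.64) rose, and the growth factor receptor gene Pdgfrb, the brightest of them, fell by 1.28, while no myeloid gene passed. Their part in the results below was not tested.

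With GSI, none of the 41 replication genes passed the test, while 4.12% of all genes did, 2.56% higher and 1.56% lower. Without adjustment, p was under 0.05 for 8 of 41 members (19.5%), of which 2 were higher and 6 lower. The share over all genes was near this, 21.5% (10.8% higher and 10.7% lower), but it includes dim genes. All 41 measured members were above the array median on every array. With dim genes left out, 3 members passed the test (7.32%), against 20.2% of the genes then tested. The differences were small. They ran from -0.36 for Mcm10 to 0.48 for Tyms, and the 95% interval of every measured member stayed within 2-fold in either direction. For 36 of the 41 it stayed within 1.5-fold. The median half-width of these intervals was 0.23, so a shift of the size seen for most members could not be told from 0 gene by gene with 2 arrays per group.

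Their direction was uneven. The mean was lower with GSI for 35 of 41 members (85.4%), against 53% of all genes, and the members' median was -0.11 against -0.01 for all genes. Both GSI arrays lay below both DMSO arrays for 19 members (46.3%; 27.7% of all genes) and above both for 3 (7.32%; 23.7% of all genes), and the groups overlapped for the other 19. The 3 above were E2f2, Cdk2 and Tyms.

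**Figure D1:**
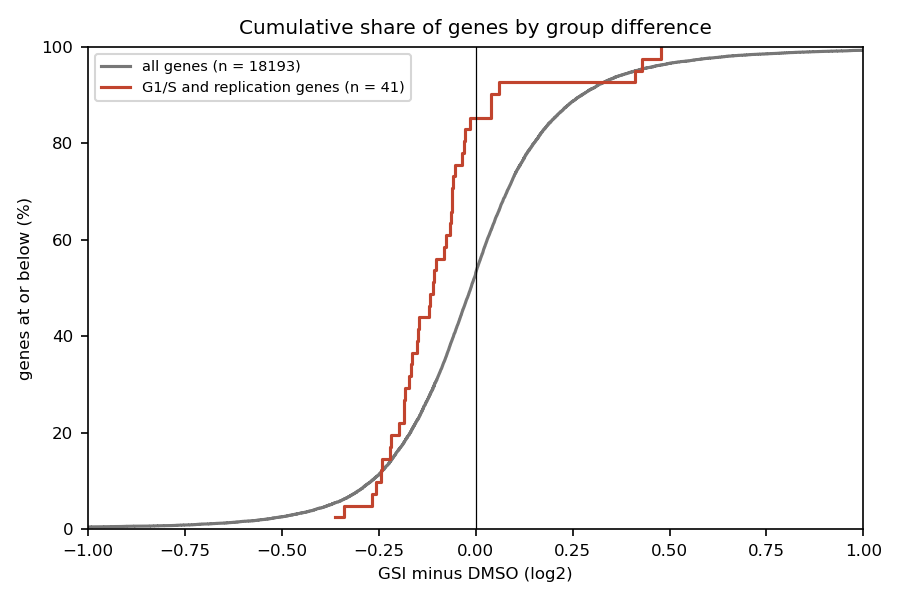
Cumulative share of genes (percent, vertical axis) by the GSI minus DMSO difference (log2, horizontal axis, shown from -1 to 1) for all 18193 genes in grey and the 41 measured members in red. The red curve lies left of the grey one around 0, where 85.4% of members and 53% of all genes have lower means, and it ends with 3 members between 0.41 and 0.48.

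This downward lean rested mainly on 1 of the GSI samples. GSI replicate 1 was below both DMSO arrays for 37 of 41 members (90.2%), against 38% of all genes. GSI replicate 2 was below both for 20 (48.8%), against 42.6% of all genes. Of the members 38 of 41 were higher on GSI replicate 2 than on GSI replicate 1 (45.9% of all genes were), by a median of 0.12, and GSI replicate 1 was the lowest of the 4 arrays for 36. Relative to the DMSO mean the members' median was -0.18 on GSI replicate 1 and -0.04 on GSI replicate 2. Without GSI replicate 1 the median difference was accordingly -0.04, with 25 of 41 members lower, and without GSI replicate 2 it was -0.18, with 38 lower. The median over all genes was -0.03 without GSI replicate 1, close to that of the members, and 0.002 without GSI replicate 2. The share of all genes with lower means was not computed with an array left out. Between the DMSO arrays the members' median for replicate 2 minus replicate 1 was -0.023, near the -0.021 of all genes. Of the 41 members 13 were higher on DMSO replicate 2 (44.2% of all genes were). The members' median does not measure how far apart the DMSO arrays lay in single members, such as 0.59 in Tyms. Along with the members, the signal at the 3' end minus that at the 5' end of the control probe sets was 0.057 on GSI replicate 1 and 0.026 on GSI replicate 2 for Gapdh, 0.32 and 0.35 for Actb, and 1.66 and 1.36 for the transferrin receptor. On the DMSO arrays the transferrin receptor values were 1.30 and 1.65. The part of RNA quality, or of any difference in culture between the GSI samples, was not tested.

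**Figure D2:**
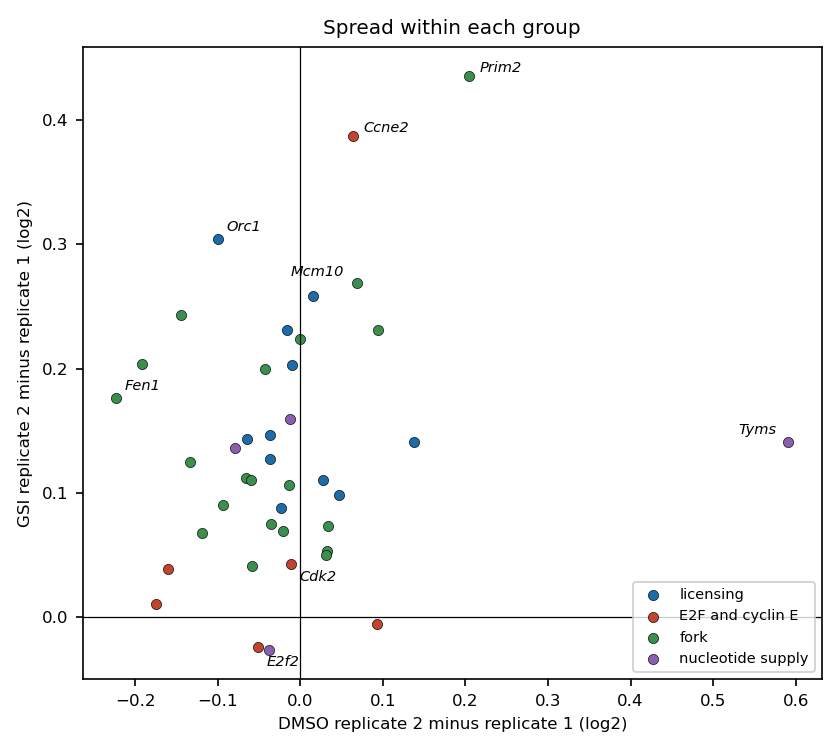
Each point is 1 of the 41 members, coloured by role, with DMSO replicate 2 minus replicate 1 on the horizontal axis and GSI replicate 2 minus replicate 1 on the vertical axis (both log2). The points lie above the horizontal line for 38 members, by a median of 0.12, while they spread to both sides of the vertical line.

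All 11 licensing genes had lower means with GSI, by a median of 0.15 below DMSO, and none passed. In this group 6 of 11 had both GSI arrays below both DMSO arrays (27.7% of all genes), and 1 of 11 was lower at an unadjusted p under 0.05 (10.7% of all genes), which is near the background. That gene was Orc6, a subunit of the origin recognition complex. It measured 9.90 and 9.86 with DMSO and 9.56 and 9.69 with GSI. Both GSI values lay under both DMSO values, and the difference was -0.26 (SE 0.090, 1.20-fold; limma, adjusted p = 0.18). Orc1, the subunit whose supply limits the complex in G1, measured 8.08 and 7.98 with DMSO and 7.64 and 7.94 with GSI. GSI replicate 2 almost met the DMSO range, and the difference of -0.24 had an interval from -0.55 to 0.07.

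The 6 genes of the MCM2 to MCM7 ring, the core of the replicative helicase, lay between -0.20 and -0.06. Mcm3 had the most negative difference of the ring, with 11.46 and 11.42 under DMSO and 11.17 and 11.32 under GSI (difference -0.20, SE 0.093; limma, adjusted p = 0.30). Its other probe sets differed by -0.32, -0.24 and -0.18, and the dimmest of its 5 by -0.02. Mcm5 (-0.16), Mcm6 (-0.15), Mcm2 (-0.15), Mcm4 (-0.12) and Mcm7 (-0.06) followed. This order holds for the probe sets used only, as the other Mcm5 probe sets differed by -0.24 and -0.54. Those of Mcm6 differed by 0.03 and -0.03. All 6 ring genes were higher on GSI replicate 2 than on GSI replicate 1, by a median of 0.14. This is close to the median group difference of -0.15 in size. For Mcm4 and Mcm7 the groups overlapped.

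The loading factors lay between -0.11 and -0.05. Cdc6, which brings the ring to the origin, measured 10.45 and 10.43 with DMSO and 10.22 and 10.45 with GSI (difference -0.11). Cdt1, its partner, measured 11.96 and 11.94 against 11.85 and 11.94 (-0.05), and Gmnn, encoding geminin, which blocks Cdt1 after S phase has begun, 11.12 and 11.11 against 10.93 and 11.14 (-0.08). In each of the 3, GSI replicate 2 sat inside or next to the DMSO values and only GSI replicate 1 was lower.

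**Figure D3:**
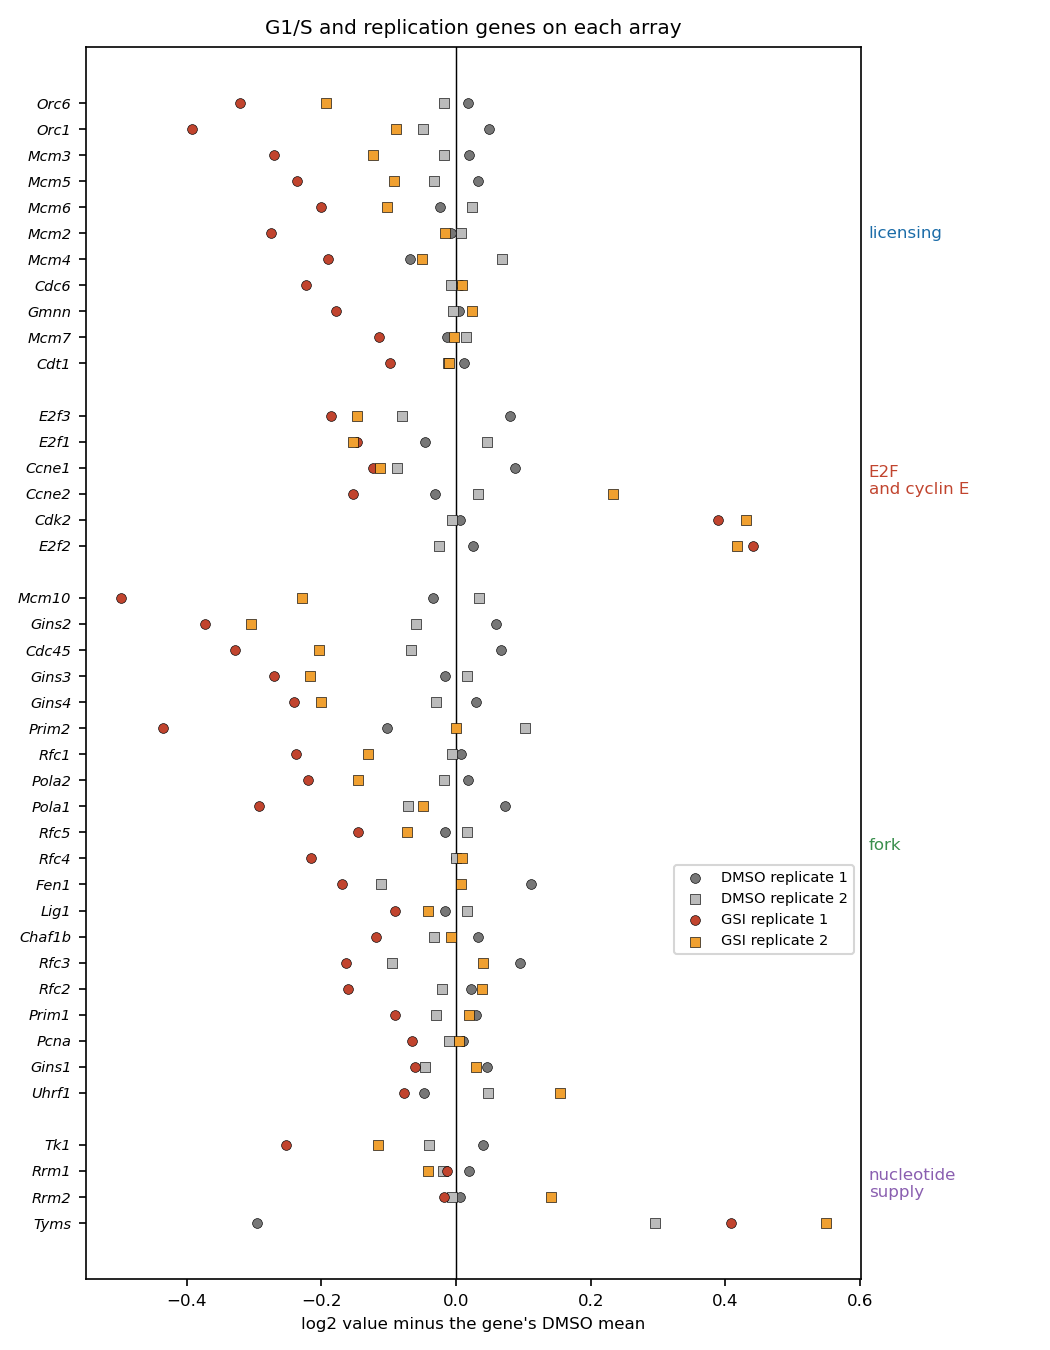
Log2 value of each of the 41 members on each array minus the gene's mean over the DMSO arrays (horizontal axis), 1 row per gene, in blocks by role. GSI replicate 1 (red circles) is the lowest array for 36 members, and Cdk2, E2f2 and Tyms have both GSI arrays above both DMSO arrays.

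Among the 6 E2F and cyclin E genes 3 had lower and 3 higher means, and none passed. E2f2 encodes an activating E2F factor that in T cells is also known to restrain proliferation. It measured 8.20 and 8.15 with DMSO and 8.62 and 8.60 with GSI. The gap between the groups was wider than the gap within either, and the difference was 0.43 (SE 0.083, 95% interval 0.22 to 0.63, 1.35-fold; limma, adjusted p = 0.052). A dimmer E2f2 probe set pointed the same way, with 7.32 and 7.36 against 7.90 and 7.92, a difference of 0.57 (limma over all 45037 probe sets, adjusted p = 0.054). Cdk2, the kinase that cyclin E activates, measured 9.37 and 9.36 with DMSO and 9.76 and 9.80 with GSI. Here too the replicates of each group nearly coincided, and the difference was 0.41 (SE 0.082, 95% interval 0.21 to 0.61, 1.33-fold; limma, adjusted p = 0.056). The other Cdk2 probe set lay far below the array medians at 2.26 to 2.33 and differed by -0.05. Neither gene shared the gap between the GSI arrays seen in the licensing genes, with GSI replicate 2 minus replicate 1 at -0.02 for E2f2 and 0.04 for Cdk2. This was not particular to them, as E2f1 (-0.006), Ccne1 (0.01) and E2f3 (0.04) of the same group also had small gaps. Only Ccne2 of the group had a large one (0.39).

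Both genes lay close to the threshold, and their calls followed the settings. E2f2 passed when its probe sets were averaged (0.50, adjusted p = 0.023, with 4.9% of all genes called), when dim genes were dropped (0.014, 20.2% called), under a robust prior with an intensity trend (0.011, 10.7% called) and after cyclic loess (0.044, 5.16% called). Cdk2 passed in the last 3 of these (adjusted p = 0.016, 0.0081 and 0.044), and averaged over its probe sets it differed by 0.18 (adjusted p = 0.28). Neither passed with arrays centred on their medians (adjusted p = 0.054 and 0.064) or in a test of all probe sets (0.099 and 0.11).

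The other activating factors did not share this direction. E2f1 measured 8.06 and 8.15 with DMSO and 7.96 and 7.95 with GSI (difference -0.15, 95% interval -0.36 to 0.06), and E2f3 9.14 and 8.98 against 8.87 and 8.91 (-0.17, 95% interval -0.40 to 0.07). For each, both GSI arrays lay just below the DMSO arrays in the probe set used, without passing. The other E2f1 probe sets differed by 0.015 and -0.09, and the other E2f3 probe set by -0.34. The intervals of E2f1 and E2f3 do not reach that of E2f2, but the difference between the genes was not itself tested. Of the cyclins E, Ccne1 measured 7.996 and 7.82 against 7.79 and 7.80 (-0.12), and Ccne2 9.31 and 9.37 against 9.19 and 9.58 (0.04). The GSI arrays differed by 0.39 in Ccne2, more than in any member but Prim2, and its groups overlapped.

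The promoters of E2f2 and Cdk2 are shown because these are the members with the smallest p. Sequences are RefSeq's for GRCm38.p6, each covering the 250 bases before the annotated start, and capitals mark matches to an E2F consensus or to CCAAT on either strand. The E2F letters searched were TTTCCCGC, TTTCGCGC, TTTGCCGC and TTTGGCGC. E2f2 lies on chr4:136172024-136172273, plus strand, and is the more upstream of 2 starts in the table. Cdk2 lies on chr10:128705052-128705301, minus strand.
E2f2: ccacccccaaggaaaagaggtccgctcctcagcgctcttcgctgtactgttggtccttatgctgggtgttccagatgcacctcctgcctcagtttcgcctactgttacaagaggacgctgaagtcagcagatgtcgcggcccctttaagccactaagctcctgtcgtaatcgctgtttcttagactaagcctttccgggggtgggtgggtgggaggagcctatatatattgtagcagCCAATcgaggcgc
Cdk2: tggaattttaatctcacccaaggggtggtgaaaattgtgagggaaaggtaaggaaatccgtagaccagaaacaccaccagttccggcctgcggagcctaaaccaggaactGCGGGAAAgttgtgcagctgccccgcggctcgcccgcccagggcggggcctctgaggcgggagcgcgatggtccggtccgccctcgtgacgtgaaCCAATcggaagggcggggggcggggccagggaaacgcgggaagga
In the Cdk2 window an E2F match on the minus strand begins at -140 and a CCAAT at -45. In E2f2 a CCAAT begins at -13, and the E2F match begins at 40 after the start. That match is shown in capitals in 30 bases at chr4:136172294-136172323.
E2f2 site: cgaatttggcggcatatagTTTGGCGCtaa

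Across the list, windows from 250 bases before to 50 after the start were found for 34 of the 42 genes. Gmnn, Mcm4, Ccne2, Gins1, Gins2, Gins4, Prim2 and Rfc2 had no window and were not searched. An E2F match lay in 15 of 34 (44.1%), against 2.6% of the 27025 genes in the table. Of the licensing genes these were Orc1, Cdc6, Cdt1, Mcm3, Mcm5, Mcm6 and Mcm7. The 15 measured members with a match had a median difference of -0.11, from -0.24 to 0.43, and the 18 without a median of -0.11. CCAAT lay in 22 of 34 (64.7%; 41.1% of all genes), the E-box CACGTG in 7 (20.6%; 8.09%), and TTCCCAC, the letters of the RBPJ partner of Notch, in 4 (11.8%; 7.25%). Those 4 were E2f3, Fen1, Mcm3 and Rfc3, at -0.17, -0.08, -0.20 and -0.06. The first E2F string and the RBPJ string share TTCCC but differ in the base after it, so they do not match at the same place, and CACGTG reads the same on both strands.

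**Figure D4:**
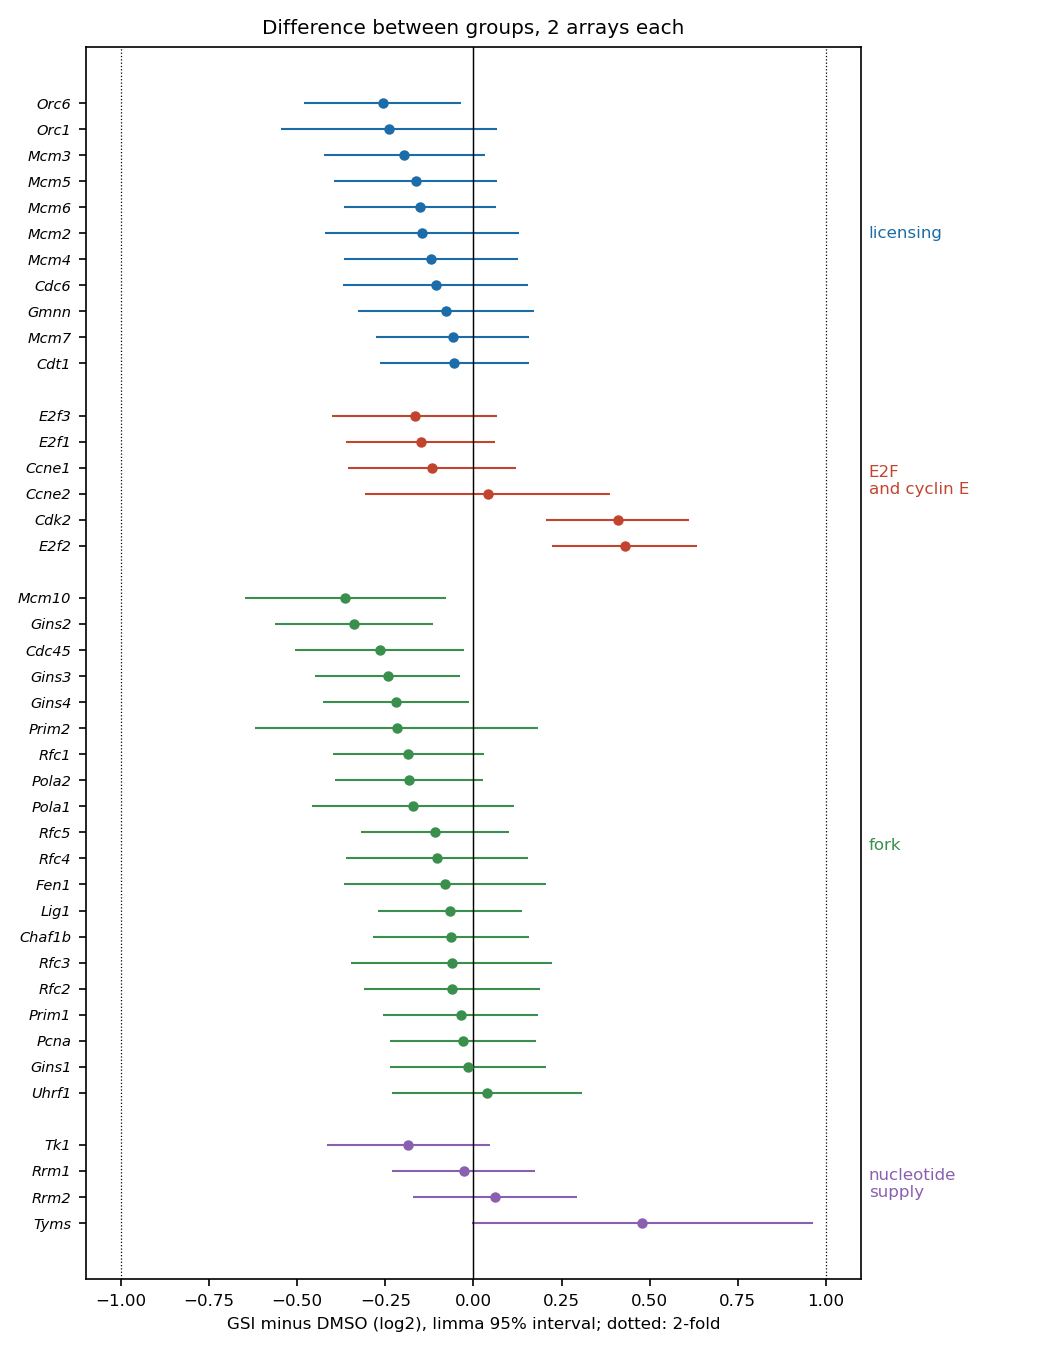
GSI minus DMSO difference (log2, horizontal axis) of each of the 41 members with the 95% interval of the limma fit, coloured by role, with dotted lines at 2-fold. The intervals span 0 for 33 members, and the 8 that do not are Cdk2 and E2f2 on the right and Orc6, Mcm10, Gins2, Cdc45, Gins3 and Gins4 on the left.

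Among the 20 measured fork genes 19 had lower means (53% of all genes), 5 of them at an unadjusted p under 0.05 (10.7% of all genes), and none passed. The 5 were Mcm10, Cdc45, Gins2, Gins3 and Gins4. Mcm10, which is needed to start the active helicase, measured 9.58 and 9.65 with DMSO and 9.12 and 9.39 with GSI. In the probe sets used it had the most negative difference of the list, -0.36 (SE 0.115, 95% interval -0.65 to -0.08, 1.29-fold; limma, adjusted p = 0.15), and its GSI arrays lay 0.27 apart. Its dimmer probe sets differed by -0.17 and -0.05, and averaged over all its probe sets it differed by -0.19 (limma, adjusted p = 0.34). Cdc45, which joins the ring with GINS to form the helicase, measured 9.47 and 9.34 against 9.07 and 9.20, a difference of -0.27 (limma, adjusted p = 0.19). Its groups did not overlap, and a dimmer probe set differed by -0.12.

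The GINS genes, whose products form the complex that joins the ring, had GSI arrays closer together than Mcm10 and Cdc45 did. Gins2 measured 9.08 and 8.97 with DMSO and 8.65 and 8.72 with GSI, a difference of -0.34 (SE 0.091, 95% interval -0.56 to -0.12, 1.27-fold; limma, adjusted p = 0.11). Both GSI arrays were lower by over 0.2, and the second Gins2 probe set differed by -0.25. Gins2 passed when dim genes were dropped (adjusted p = 0.035) and under the robust prior with a trend (0.033), and in no other setting tried. Gins3 measured 7.78 and 7.81 against 7.53 and 7.58 (difference -0.24; limma, adjusted p = 0.17), with its second probe set at -0.28. Gins4 measured 9.17 and 9.11 against 8.90 and 8.94 (-0.22; limma, adjusted p = 0.21). Gins1 differed from these 3, with 10.02 and 9.92 against 9.91 and 10.00, overlapping groups and a difference of -0.02 (95% interval -0.24 to 0.21). In the 3 lower GINS genes GSI replicate 2 was also under both DMSO arrays, and the median of the 4 genes relative to the DMSO mean was -0.26 on GSI replicate 1 and -0.21 on GSI replicate 2.

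The promoters of Mcm10 and Gins3 are printed as those of the members next in p with a sequence in the table, on chr2:5012792-5013041, minus strand, and chr8:95633309-95633558, plus strand, with the same marking.
Mcm10: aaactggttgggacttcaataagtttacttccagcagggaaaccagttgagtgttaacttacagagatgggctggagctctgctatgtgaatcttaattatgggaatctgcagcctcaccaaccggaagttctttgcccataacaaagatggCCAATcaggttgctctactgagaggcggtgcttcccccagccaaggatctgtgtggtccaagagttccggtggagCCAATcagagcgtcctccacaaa
Gins3: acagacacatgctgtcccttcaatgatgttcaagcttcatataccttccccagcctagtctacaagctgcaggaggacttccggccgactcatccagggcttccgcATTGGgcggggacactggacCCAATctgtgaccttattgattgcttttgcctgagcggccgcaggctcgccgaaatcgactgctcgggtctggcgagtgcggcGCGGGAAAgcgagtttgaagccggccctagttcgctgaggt
Gins3 holds an E2F match on the minus strand at -41 and CCAAT matches at -144 and -124. Mcm10 holds CCAAT at -98 and -23, with a further one at 32 after the start, and no E2F match in its window.

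**Figure D5:**
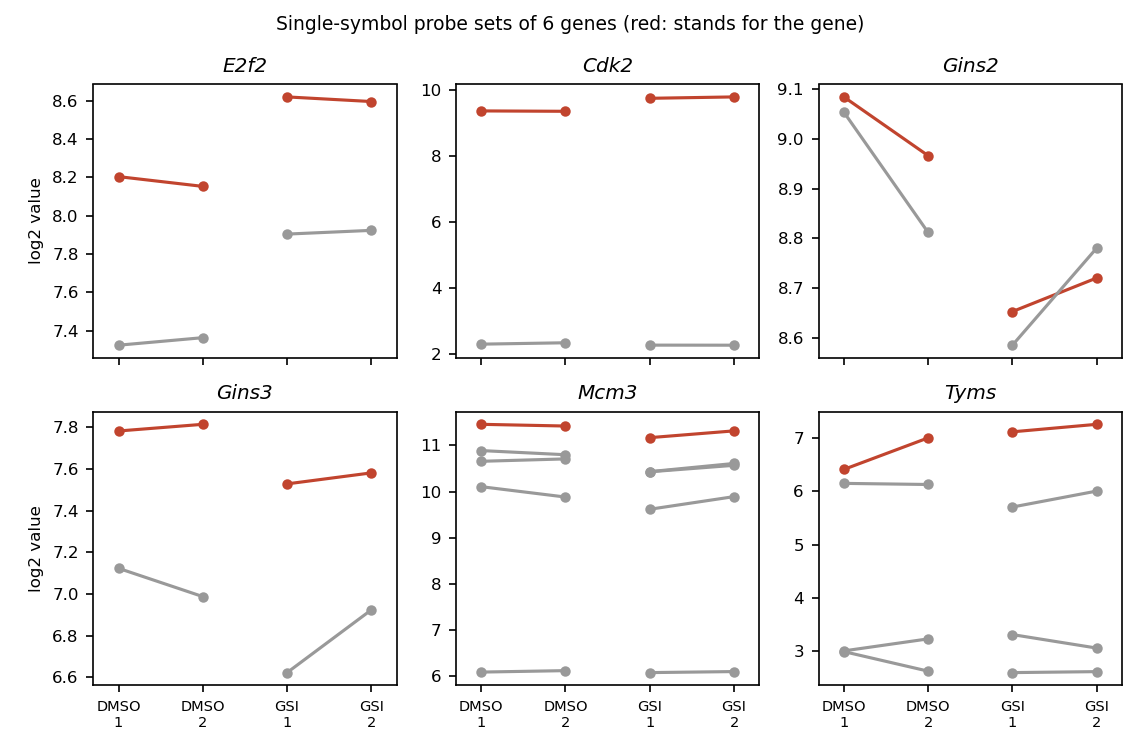
Log2 values (vertical axis, own scale in each panel) on the 4 arrays for all single-gene probe sets of E2f2, Cdk2, Gins2, Gins3, Mcm3 and Tyms, with lines joining replicates of a group and the probe set that stands for the gene in red. Both probe sets of E2f2 are higher with GSI, both of Gins2 and Gins3 are lower, and those of Tyms point in different directions.

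The remaining fork genes lay nearer to DMSO. Of the polymerase alpha and primase genes, which lay the first primers, Pola2 differed by -0.18, Pola1 by -0.17, Prim2 by -0.22 and Prim1 by -0.04. Prim2 had the widest gap between GSI arrays in the list, 9.49 and 9.92 against 9.82 and 10.03 with DMSO, and its groups overlapped. Of the clamp loader genes Rfc1 differed by -0.18 and Rfc5 by -0.11 with non-overlapping arrays, and Rfc4 (-0.10), Rfc2 (-0.06) and Rfc3 (-0.06) overlapped. Pcna, the clamp itself, measured 13.10 and 13.08 with DMSO and 13.02 and 13.09 with GSI, a difference of -0.03 with an interval from -0.24 to 0.18. Fen1 (-0.08) and Lig1 (-0.07), which process and join Okazaki fragments, and Chaf1b (-0.06), a histone chaperone subunit, differed by less than 0.1. Uhrf1, which guides maintenance methylation behind the fork, was the fork gene with a higher mean (0.04), at 11.66 and 11.75 against 11.63 and 11.86.

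The 4 nucleotide supply genes had a median of 0.02, and none passed. Tk1, the salvage kinase for thymidine, measured 9.87 and 9.79 with DMSO and 9.58 and 9.72 with GSI (difference -0.18; limma, adjusted p = 0.33). The subunits of ribonucleotide reductase, which makes deoxynucleotides, lay close to DMSO, with Rrm1 at 11.26 and 11.22 against 11.22 and 11.20 (-0.03) and Rrm2 at 12.07 and 12.06 against 12.05 and 12.21 (0.06). The 2 dimmer Rrm2 probe sets differed by 0.14 and 0.18, and none passed.

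Tyms, encoding thymidylate synthase, gave the largest positive difference, 0.48 (SE 0.196, 95% interval from just below 0 to 0.96; limma, adjusted p = 0.24), from 6.41 and 6.999 with DMSO and 7.11 and 7.25 with GSI. The DMSO arrays lay 0.59 apart, more than the group difference. Its next probe set pointed the other way, with 6.15 and 6.13 against 5.70 and 6.003 (-0.28). A brighter probe set, which the annotation pairs with both Tyms and its pseudogene Tyms-ps and which therefore did not enter, measured 10.43 and 10.27 against 10.26 and 10.27 (-0.09). The 3 probe sets do not give Tyms a common direction.

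The 41 genes had 91 probe sets of their own, and 32 genes had more than 1. Of the 80 that were above the array medians on all 4 arrays, 65 had lower and 15 higher means with GSI, and none of the 91 passed in the test of all probe sets. In 8 of the 28 genes with more than 1 such probe set the directions differed, namely Cdt1, E2f1, Gins1, Mcm6, Prim1, Prim2, Tyms and Uhrf1. For 8 genes, Mcm2, Mcm3, Mcm5, Mcm7, Ccne1, Gins2, Fen1 and Rrm2, the probe set used carries the maker's mark for probes that may bind further transcripts, so their share of the signal is uncertain.

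Of 65 other genes of replication and its control, 63 were measured, and 1 rose and 2 fell (3 of 63, 4.76%, beside 4.12% of all genes). Their median was -0.08, and 42 had lower means (66.7%, against 53% of all genes). On GSI replicate 2, 49 were higher than on GSI replicate 1 (77.8%, against 45.9% of all genes). Orc2, a further origin recognition subunit, fell from 9.44 and 9.30 to 8.70 and 8.88, a difference of -0.58 (limma, adjusted p = 0.046). Dctd, which deaminates dCMP towards thymidylate, fell from 7.53 and 7.41 to 6.75 and 6.83, a difference of -0.68 (1.61-fold; limma, adjusted p = 0.021). Ctps2, a CTP synthase gene, rose from 8.18 and 7.87 to 8.96 and 8.70, a difference of 0.80 (1.74-fold; limma, adjusted p = 0.046). Neither Orc2 nor Ctps2 passed in the test of all probe sets (adjusted p = 0.081 and 0.078) or averaged over their probe sets (-0.48, adjusted p = 0.052, and 0.28, adjusted p = 0.11). None of the 3 passed with any 1 array left out (adjusted p from 0.13 to 0.31).

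By role, 0 of 24 other fork and polymerase genes passed, with a median of -0.11 and Pold2, a subunit of polymerase delta, nearest at -0.49 (limma, adjusted p = 0.054). Of 16 genes of E2F and retinoblastoma control 0 passed, 8 were lower and 8 higher, and Rbl2, encoding the pocket protein p130, was nearest at 0.37 (limma, adjusted p = 0.071). At an unadjusted p under 0.05 limma had 4 of the 63 higher (10.8% of all genes) and 13 lower (10.7% of all genes). The lower ones were 3 origin, 4 fork, 4 nucleotide and 2 control genes, and the higher ones 1 nucleotide and 3 control genes. Of the remaining origin genes 1 of 12 passed, Orc2, and of the other nucleotide genes 2 of 11, Dctd and Ctps2. Among 10 G1 regulators upstream of these genes the inhibitor Cdkn1a rose by 1.18, with 9.12 and 9.15 against 10.32 and 10.30 (limma, adjusted p = 0.0041), and Myc fell by 0.62, with 10.77 and 10.74 against 10.02 and 10.25 (limma, adjusted p = 0.039), though Myc did not in the test of all probe sets (0.072), and neither did so with any 1 array left out (0.082 to 0.27). The other 8, D cyclins and their kinases among them, did not pass.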

How the data were processed

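Biotin-labelled total RNA of 4 samples was measured on Affymetrix arrays. The deposited values are log2 expression per probe set, made by the authors with RMA (background correction, normalization between arrays, summary over probes) per the submitters' processing notes. The RMA version is not given in the sources used here. RMA compresses differences of dim probe sets. Of 45037 non-control probe sets, the platform annotation pairs 34945 with 1 symbol, 34741 of them updated through RefSeq GRCm38.p6. No filter was applied, and 0 values were missing.

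Groups were compared with limma 3.58.1 in R 4.3.3 (lmFit, eBayes, two-sided, Benjamini-Hochberg over 18193 genes, 5.8 total degrees of freedom). Intervals and standard errors are from that moderated fit, and the number of arrays limits the precision. Scripts were tested on simulated data. The members and lists were chosen with earlier results of these data known. Values on every array are given for members at an unadjusted p under 0.05, called in any setting, or with the 2 smallest p of their role, and for some further members chosen after their values were seen. Other replication and G1 genes are named where called, or the nearest of a list with none. Alternatives were every probe set, probe set means, dim genes left out, trend and robust prior, median centring, cyclic loess, replicate block, and each array left out.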

Additional observations from a re-analysis of the deposited data

How the results depend on the processing

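No replication gene was called when every probe set was tested, with centred arrays or with the replicate number as a block, and 1 (E2f2) was as the mean of its probe sets, 2 (E2f2, Cdk2) after cyclic loess, and 3 (with Gins2) with dim genes left out and with the trend and robust prior. With dim genes left out 1838 genes were called in all (9097 tested), and with the trend and robust prior 1941. With that prior 15 members had an unadjusted p under 0.05, against 8 in the main fit. The share of all genes at an unadjusted p under 0.05 was not computed with that prior. So the larger count cannot be read as a stronger result for the members. Of the 63 other replication genes, 1 was called when every probe set was tested, where 1.39% of all probe sets were. As means of probe sets 4 were called (6.35%, against 4.9% of all genes). With dim genes left out 9 were (14.3%, against 20.2% of the genes tested), and with the trend and robust prior 10 (15.9%, against 10.7%). Centred arrays called 5, where 5.62% of all genes were called, and cyclic loess 5 (7.94%, against 5.16%). The replicate block called 217 genes in all (1.19%) and 0 other replication genes. Under it Cdkn1a still passed (adjusted p = 0.034) and Myc did not (0.10). Deviations of same-numbered samples correlated at 0.085 over all genes and 0.19 over the members, and with only 2 numbers and no label that ties them, the numbers were not taken to pair the samples.

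Leaving out 1 array leaves a lone array in that group, whose variation is then taken to equal that of the intact group. The counts were then 0 to 6 over all genes against 750, 0 members, 0 other replication genes against 3, and 2 to 8 members at an unadjusted p under 0.05 (2 without DMSO replicate 1, 5 without DMSO replicate 2, 2 without GSI replicate 1, 8 without GSI replicate 2). These member counts at an unadjusted p have no background, as the share of all genes was not computed with an array left out. With an array left out the members' median ran from -0.18 to -0.04. Across all settings it stayed below 0. The median over all genes was also below 0, save after cyclic loess and without GSI replicate 2, so the sign alone does not set the members apart. Without GSI replicate 1 it was -0.03 over all genes, against -0.04 for the members. The 11 members given by the naming rule kept their sign in every alternative that recomputes the difference (averaged probe sets, centring, cyclic loess, each array left out). The other alternatives leave the difference as it is. For Tyms the sign was kept in name only, since its difference of 0.48 became 0.015 as the mean of its probe sets. Without DMSO replicate 1 it was 0.18. The cause of the changed calls was not tested, save that fewer genes or arrays entered where some were left out.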
